A study of Homo sapiens and Mus musculus with 12 samples.

Results

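A375 is a human melanoma cell line with a mutant BRAF kinase, and the comparison described here is that of the polysome library with the monosome library of the A375 cells labelled P. It uses 2 of the 12 libraries of the series, and 12638 of the 16782 genes listed for A375 were compared, those that averaged 1 TPM (transcripts per 1000000 of all transcripts) or more over the 6 A375 libraries. The series profiled parental cells and drug-tolerant persister cells of A375 and of the mouse melanoma line Yumm1.7, each by 1 polysome, 1 monosome and 1 input library. The labels call the cell states P and S without saying which letter stands for which cells, name no drug or dose, and give no allele, age of culture or clone. The polysome library was made from the last few fractions at the bottom of a sucrose gradient, the monosome library from the peak of single ribosomes together with several fractions above it, and the input library from RNA that was not fractionated. The monosome library therefore also holds RNA that sediments more slowly than a whole ribosome, and these data do not separate such RNA from mRNA carrying 1 ribosome.

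An mRNA that is being translated well carries several ribosomes at once and sediments into the polysomes, whereas an mRNA with one ribosome, a stalled or repressed mRNA and RNA that is never translated stay in lighter fractions. A longer coding sequence has room for more ribosomes. Known controls on loading include the 5′ terminal oligopyrimidine (TOP) tract of mRNAs for ribosomal proteins, the iron-responsive element that binds iron regulatory proteins in ferritin mRNAs, upstream reading frames, and the slow decoding of UGA as selenocysteine.

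Each value below is log2(TPM + 1) in the polysome library minus log2(TPM + 1) in the monosome library, minus the same difference of the median gene. The median gene was 2.07-fold higher in the polysome library (1.05 on the log2 scale), and a value of 0 stands for that gene. A gene is called higher or lower when it differs from the median gene by 2-fold or more, a value of 1 or -1. There was 1 library of each kind, so that no test could be made, and no difference has a replicate check. How deeply each library was sequenced cannot be read from TPM and is unknown. A gene near 0 TPM in both libraries gets a value near -1.05 by this arithmetic, and values of low genes are less sure than those of abundant ones.

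Of the 12638 genes, 2408 (19.1%) were at least 2-fold higher in the polysome library than the median gene and 2634 (20.8%) at least 2-fold lower. Without taking off the median, 6526 genes (51.6%) were higher and 930 (7.36%) lower. At 4-fold the counts were 562 higher and 973 lower, and at 8-fold 77 higher and 293 lower, so the distribution had its longer tail toward the monosome library. Across genes the log2 levels of the polysome library correlated with those of input at Pearson's r = 0.95, those of the monosome library with input at 0.91, and those of the polysome and monosome libraries with each other at 0.80. Genes are not replicates, and these values describe the 3 libraries only. The 10 most abundant genes took 8.02% of the TPM in the polysome library, against 25.5% in the monosome library and 11.6% in input. The deposited TPM of the listed genes added up to 87.5%, 66.6% and 82.2% of the TPM total in the polysome, monosome and input libraries. Of 18 melanoma lineage markers 14 were listed, summing to 1564 TPM in polysomes, 697 TPM in monosomes and 1716 TPM in input, while MLANA and TYR, which make melanosomal proteins, were not analysed here. Keratinocyte markers summed to at most 50.03 TPM, with 4 of 11 listed. Leukocyte, endothelial and fibroblast markers summed to at most 3.52, 0.475 and 7.34 TPM in any of the 3 libraries, with 2 of 13, 1 of 9 and 4 of 11 listed.

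**Figure D1:**
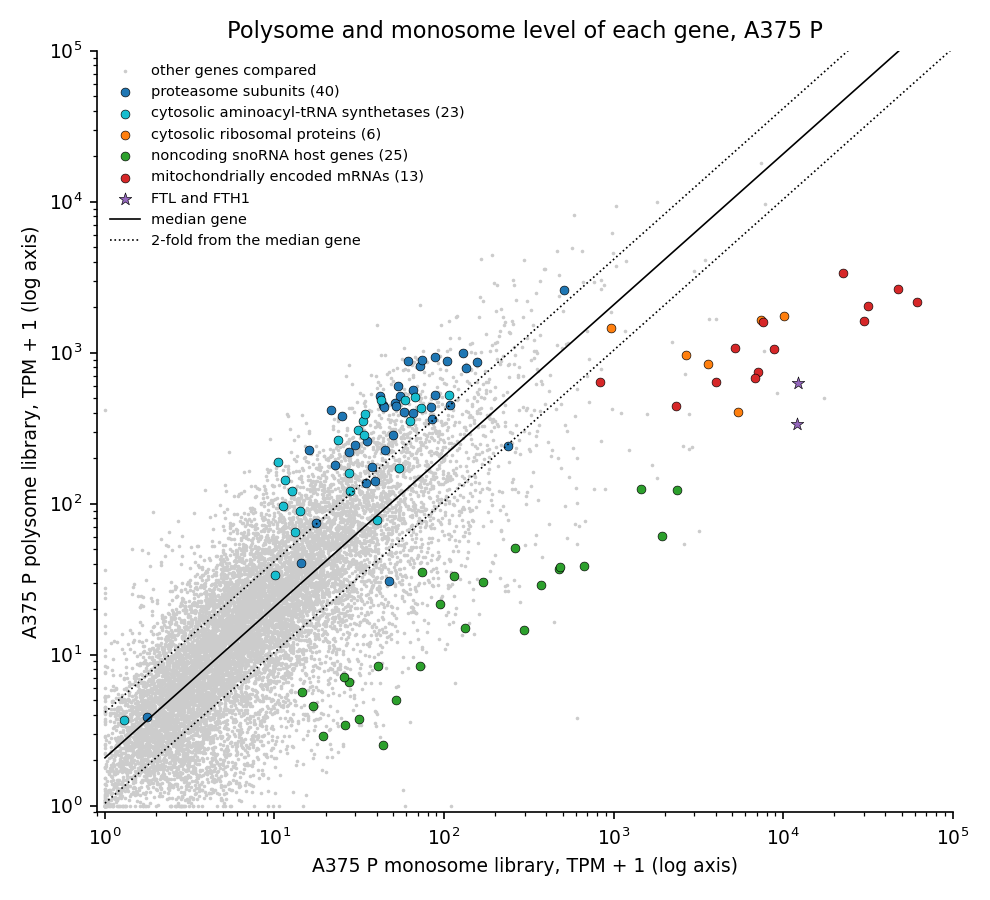
Level of each of the 12638 genes in the A375 P polysome library (vertical, TPM + 1, log axis) and monosome library (horizontal, TPM + 1, log axis), with 5 gene lists and the ferritin mRNAs in colour. The solid line is the median gene (2.07-fold) and the dotted lines lie 2-fold to either side; the 40 proteasome and 23 synthetase mRNAs lie mostly above the upper line, and all 13 mitochondrially encoded mRNAs and all 25 host genes lie below the lower one.

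Small noncoding RNA genes, the ribosomal RNAs and mRNAs encoded in mitochondria, and the host genes of small nucleolar RNAs had the lowest medians of the gene lists, below that of the ribosomal protein mRNAs. Only 3 of 13 small noncoding RNA genes and 2 mitochondrial ribosomal RNAs were compared. With no level filter the small noncoding median was -2.06, above the -2.81 of the ribosomal protein mRNAs. The 13 mRNAs of the mitochondrial genome encode subunits of the respiratory chain and are read inside the organelle by its own ribosomes. All 13 were lower, with a median of -4.12 and a range of -5.89 to -1.43. Together they took 1.87% of the TPM in the polysome library, against 23.7% in the monosome library and 9.30% in input. MT-CO2, for the second subunit of cytochrome oxidase, had 2153 TPM in polysomes, against 61622 TPM in monosomes and 12791 TPM in input (-5.89). MT-CO3, another subunit of it, had 2646 TPM in polysomes, against 47626 TPM in monosomes and 15977 TPM in input (-5.22). Both were below their input level in polysomes and above it in monosomes. MT-ND5, for a large subunit of complex I, had the highest value of the 13, with 640.0 TPM in polysomes, against 836 TPM in monosomes and 2104 TPM in input (-1.43).

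Of the 13 mRNAs 10 were above their input level in monosomes and 3, MT-ND5 among them, below it, and both ribosomal RNAs of mitochondria were below it. MT-RNR1, the small-subunit RNA, had 65.1 TPM in polysomes, against 3202 TPM in monosomes and 9298 TPM in input. MT-RNR2, the large-subunit RNA, had 499.7 TPM in polysomes, against 17356 TPM in monosomes and 18127 TPM in input. Relative to the median gene they stood at -6.65 and -6.17. MT-RNR1 was below input in both gradient libraries, and MT-RNR2 was close to it in the monosome library. Of 22 mitochondrial tRNA genes 17 were lower and 0 higher, with a median of -3.33. All 37 genes of the mitochondrial genome took 2.23% of the TPM in polysomes, against 28.2% in monosomes and 13.3% in input.

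Long noncoding RNAs as a class were low. RefSeq gave a class to 12456 of the genes, and of 806 long noncoding RNAs 678 were lower and 7 higher (median -1.93), against 1657 lower and 2314 higher of 11143 protein-coding genes (median 0.12). Of the 806, 51 were below 1 TPM in both libraries, and 33 of these counted as lower. Among those with a mean of at least 10 TPM, 105 of 114 were lower and 1 was higher (median -2.67), against 897 and 1994 of 6681 protein-coding genes (median 0.40).

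The host genes of small nucleolar RNAs stood far below the median gene. Their introns yield the snoRNAs that guide ribosomal RNA modification, and their spliced exons carry only short reading frames. All 25 that were compared were lower, from -6.05 to -2.12, with a median of -4.12. SNHG5 had 59.7 TPM in polysomes, against 1942 TPM in monosomes and 595 TPM in input. SNHG29 had 123 TPM in polysomes, against 2382 TPM in monosomes and 906 TPM in input (-5.32). GAS5, a host RNA known to be degraded by nonsense-mediated decay when translated, had 124 TPM in polysomes, against 1442 TPM in monosomes and 467 TPM in input (-4.58). In all 3 the monosome level was the highest of the libraries and the polysome level the lowest.

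The list of nuclear long noncoding RNAs was mixed when set against input: all 9 members compared were below it in polysomes, and 6 of them also in monosomes. MALAT1, a speckle-associated RNA, had 11.1 TPM in polysomes, against 11.8 TPM in monosomes and 219 TPM in input (-1.13). NEAT1, the scaffold of paraspeckles, had 77.1 TPM in polysomes, against 145 TPM in monosomes and 257 TPM in input (-1.95). Both were below input in both gradient libraries. NORAD, counted in this list although it is a cytoplasmic RNA that binds Pumilio proteins, had 35.1 TPM in polysomes, against 50.6 TPM in monosomes and 83.1 TPM in input (-1.57). OIP5-AS1, with 6.86 TPM in polysomes, against 36.4 TPM in monosomes and 25.4 TPM in input (-3.30), was above input in monosomes like most host genes, as were JPX and LINC-PINT. Of the 9 members of this list 8 were lower, with a median of -1.95.

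The lowest value of all among genes averaging 10 TPM or more was that of BCYRN1, the primate BC200 RNA, a small cytoplasmic RNA known from neurons and tumours as an inhibitor of translation. It had 2.82 TPM in polysomes, against 605 TPM in monosomes and 52.6 TPM in input (-8.36). RN7SL2, a gene for the RNA of the signal recognition particle, was listed at 0 in polysomes, against 57.99 TPM in monosomes and 1087 TPM in input. The libraries were made from RNA selected on poly-T beads, so levels of RNA without a poly(A) tail depend on how much of it was carried through. DLEU2, a long noncoding RNA that hosts microRNAs, had 0.264 TPM in polysomes, against 56.1 TPM in monosomes and 25.6 TPM in input (-6.55). This was not seen in A375 S, where DLEU2 had 1.78 TPM in polysomes and 0.153 TPM in monosomes (0.60).

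The ferritin mRNAs were among the lowest of all protein-coding genes of the nucleus, with FTL the lowest. FTL encodes the light chain and FTH1 the heavy chain of the iron store, and in iron-poor cells iron regulatory proteins bind an element in the 5′ UTR and block initiation. FTL had 337 TPM in polysomes, against 12113 TPM in monosomes and 2246 TPM in input (-6.21). FTH1 had 632 TPM in polysomes, against 12266 TPM in monosomes and 2688 TPM in input (-5.33). The pair took 0.0969% of the TPM in polysomes, against 2.44% in monosomes and 0.493% in input.

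The elements are shown because the mRNAs that carry them parted widely; capitals mark the 6-base loop, read from GENCODE transcripts on GRCh38. FTL lies at chr19:48965335-48965364 (plus strand) and FTH1 at chr11:61967573-61967602 (minus strand), both in the 5′ UTR. The TFRC element, at chr3:196050978-196051007 (minus strand), is 1 of 4 matches in its 3′ UTR, where such elements are known to protect the mRNA of the transferrin receptor from decay.
FTL: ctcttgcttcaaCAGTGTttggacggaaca
FTH1: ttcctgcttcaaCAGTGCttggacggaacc
TFRC: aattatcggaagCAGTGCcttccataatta

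The pattern searched for was a bulged C, 5 paired bases and the loop CAGTGN on the transcript strand, and 12 of 10731 genes with a 5′ UTR held it (0.112%). Besides the ferritin genes, the 10 others ranged from -0.86 (TMEM198) to 1.40 (DUSP9). TFRC had 189.8 TPM in polysomes, against 108 TPM in monosomes and 153 TPM in input (-0.24). HIF1A, a hypoxia factor placed on the same list, stood at 1.21 and was its only higher member. Of the 9 mRNAs on the iron list the 2 ferritins were lower, and no other mRNA with the pattern came within 4-fold of them. A match to letters is a description and does not show that the site is bound.

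Cytosolic ribosomal protein mRNAs begin with a TOP tract, through which growth signals are known to control their loading. Of 84 such genes 6 were listed here, and the others were not analysed here. All but FAU were lower, with a median of -3.19 over the 6. RPLP0, a stalk protein, had 1754 TPM in polysomes, against 10081 TPM in monosomes and 3689 TPM in input (-3.57). RPLP1, its partner, had 402 TPM in polysomes, against 5444 TPM in monosomes and 1543 TPM in input (-4.81). FAU, which encodes a ribosomal protein fused to a ubiquitin-like domain, had 1453 TPM in polysomes, against 970.4 TPM in monosomes and 1421 TPM in input (-0.47). Genes of this family have many pseudogenes, with which they can share reads.

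The other mRNAs with known TOP tracts, which encode elongation factors, their regulators and several abundant proteins, spread over a wide range. Of 27, 11 were lower and 4 higher, with a median of -0.60. TPT1, a growth-related tumour protein, had 391 TPM in polysomes, against 2784 TPM in monosomes and 849 TPM in input (-3.88). PABPC1, the cytoplasmic poly(A)-binding protein, had 389 TPM in polysomes, against 1583 TPM in monosomes and 858 TPM in input (-3.07). EEF1A1, which delivers aminoacyl-tRNA to the ribosome, had 9679 TPM in polysomes, against 7828 TPM in monosomes and 7342 TPM in input (-0.74). It was thus more abundant in the polysome library as deposited, though less so than the median gene. EEF2, the translocase of elongation, stood at 0.78, and NPM1, a nucleolar chaperone, had 6177 TPM in polysomes, against 974 TPM in monosomes and 3971 TPM in input (1.61). VIM, the intermediate filament vimentin, had 9326 TPM in polysomes, against 1039 TPM in monosomes and 4859 TPM in input (2.12).

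The starts of these genes are printed because mRNAs with a like tract lay on both sides of the median gene; capitals mark the tract, from the RefSeq start (GRCh38.p14) at base 16. For NPM1 and ZFAS1 RefSeq places the gene's outer end further upstream, and for NPM1 the start shown is the first of 2 windows, of which the other does not begin with a C. The last 2 are host genes. Their places are chr12:120201097-120201126 (RPLP0, minus), chr15:69452803-69452832 (RPLP1, plus), chr13:45341169-45341198 (TPT1, minus), chr6:73521018-73521047 (EEF1A1, minus), chr19:3985449-3985478 (EEF2, minus), chr5:171387834-171387863 (NPM1, plus), chr6:85678719-85678748 (SNHG5, minus) and chr20:49278627-49278656 (ZFAS1, plus).
RPLP1: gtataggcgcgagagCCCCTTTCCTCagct
RPLP0: gcgcgggcgcgaggcCCTTCTCTCgccagg
TPT1: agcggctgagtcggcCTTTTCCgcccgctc
EEF1A1: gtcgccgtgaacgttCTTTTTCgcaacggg
EEF2: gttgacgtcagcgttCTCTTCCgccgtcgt
NPM1: cggggagcctgcgtcCTTTCCCTggtgtga
SNHG5: gctgcgcacttcggtCTTTTacgtcggcct
ZFAS1: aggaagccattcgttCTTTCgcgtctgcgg

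The motif counted was a C at the RefSeq start followed by at least 4 bases that are C or T on the gene's strand. It occurred in 4.04% of 27305 RefSeq promoter windows, the first listed for each gene, in 512 of 9867 compared genes with a window, and in 14 of 20 of the other TOP mRNAs. All 5 ribosomal protein genes with a window had it, as did 6 of 21 host genes. The 512 genes had a median of -0.12, with 116 lower and 96 higher, against a median of 0.06, with 1766 lower and 1851 higher, in the 9355 genes without it. For genes averaging 50 TPM or more the gap was larger. There the 140 genes with the motif had a median of 0.11, with 37 lower and 48 higher. The 1759 without it had a median of 0.67, with 269 lower and 717 higher. Among the host genes the median was -4.64 with the motif and -3.97 without it, and all 21 were lower. The annotated start need not be the start used in A375 cells.

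Selenoproteins carry selenocysteine, which is inserted at an in-frame UGA that would otherwise end translation. Of 18 compared, 8 were lower and 1 was higher, with a median of -0.82. SELENOW, a small redox protein, had 15.4 TPM in polysomes, against 444 TPM in monosomes and 138 TPM in input (-5.81). GPX1, cytosolic glutathione peroxidase, had 123 TPM in polysomes, against 767 TPM in monosomes and 444 TPM in input (-3.68). GPX4, which removes lipid peroxides and guards against ferroptosis, had 72.5 TPM in polysomes, against 416 TPM in monosomes and 289 TPM in input (-3.55). All 3 were lowest in polysomes and highest in monosomes.

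The members divided by where the UGA lies, a split and a set of names chosen after their values were seen and given as a description. In 7 mRNAs (SELENOI, SELENOK, SELENOO, SELENOS, TXNRD1, TXNRD2 and TXNRD3) at most 10 codons follow the first in-frame TGA. These ranged from -0.52 to 1.49 with a median of 0.41, and none was lower. In the other 11 more codons follow, and these ranged from -5.81 to -0.69 with a median of -1.68, 8 of them lower. Of all genes 20.8% were lower, and of those for proteins of 100 to under 200 residues 39.5%. The groups did not overlap at this cut, but their nearest members, SELENOK (-0.52) and SELENOP and SEPHS2 (both -0.69), lay close together. The groups also differed in length, with a median of 499 residues in the first and 195 in the second, though SELENOK and SELENOS, of 94 and 189 residues, belong to the first. SELENOS, an ER membrane protein of the degradation machinery, had 152 TPM in polysomes, against 25.3 TPM in monosomes and 102 TPM in input (1.49). TXNRD1, cytosolic thioredoxin reductase, had 283 TPM in polysomes, against 77.6 TPM in monosomes and 189.8 TPM in input (0.80).

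The stretches around the codon are shown for 3 mRNAs of each kind, with the TGA in capitals, from GENCODE coding transcripts on GRCh38. GPX1 lies at chr3:49358120-49358146 (minus), GPX4 at chr19:1105391-1105417 (plus) and SELENOH at chr11:57741810-57741836 (plus). In these the codon is 49, 73 and 44, of 203, 197 and 122 residues. SELENOK lies at chr3:53885828-53885854 (minus), SELENOS at chr15:101272765-101272791 (minus) and TXNRD1 at chr12:104348401-104348427 (plus), with the codon at 92, 188 and 498 of 94, 189 and 499 residues.
GPX1: gtggcgtccctcTGAggcaccacggtc
GPX4: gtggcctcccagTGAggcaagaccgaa
SELENOH: actagcTGAcgcgtctatgggcgcaac
SELENOK: ccccctccaatggctggtggaTGAgga
SELENOS: tcatctggcggaTGAggctaagaatct
TXNRD1: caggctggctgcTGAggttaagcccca

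Upstream reading frames and polyamine control gave a mixed set. The genes of polyamine synthesis and its feedback had a median of -1.12, with 6 of 11 lower and 0 higher. As deposited, without taking off the median gene, their median was -0.07. OAZ1, the antizyme made by a polyamine-driven frameshift, had 400.1 TPM in polysomes, against 1112 TPM in monosomes and 879.7 TPM in input (-2.52). AMD1, S-adenosylmethionine decarboxylase, had 53.9 TPM in polysomes, against 58.6 TPM in monosomes and 75.1 TPM in input (-1.17). ODC1, ornithine decarboxylase, the rate-limiting enzyme, stood at -0.89, and AZIN1, which relieves it of antizyme, at -0.04. Of 15 mRNAs known for upstream reading frames in the stress response 3 were lower and 1 was higher, with a median of -0.33. The share of lower members was close to the 20.8% of all genes, so the list as a set did not stand out. The lower ones were SLC35A4, the stress factor DDIT3 and ATF4, the effector of the integrated stress response. ATF4 had 232 TPM in polysomes, against 577 TPM in monosomes and 472 TPM in input (-2.36). PPP1R15A, the phosphatase subunit that ends this response, stood at -0.32, and EPRS1, glutamyl-prolyl-tRNA synthetase, was the higher one (2.07).

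The upstream frame of AMD1, known for a short peptide on which ribosomes stall when polyamines are high, and 1 of the 7 upstream ATG frames of ATF4 are shown because both genes were lower; capitals run from ATG to the stop. The ATF4 frame shown is a short one of 5 codons that starts at base 762 of the transcript. Those starting at bases 695 and 734 do not end within the 5′ UTR. Whether the frame shown bears on the value of ATF4 was not tested. AMD1 lies at chr6:110874793-110874819 and ATF4 at chr22:39521322-39521345, both on the plus strand of GRCh38.
AMD1: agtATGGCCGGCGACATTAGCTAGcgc
ATF4: ctaATGGGAGTTGGCTTCTGAttc

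Over all nuclear genes with a coding transcript the presence of an upstream ATG went with small differences. Genes with 0 upstream ATGs had a median of 0.25 (5481 genes), those with 1 a median of 0.11 (2398 genes), and those with 5 or more a median of -0.19 (923 genes). Genes with a 3′ UTR of 101 to 200 bases had a median of 0.39 and those above 4000 bases a median of -0.11.

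**Figure D2:**
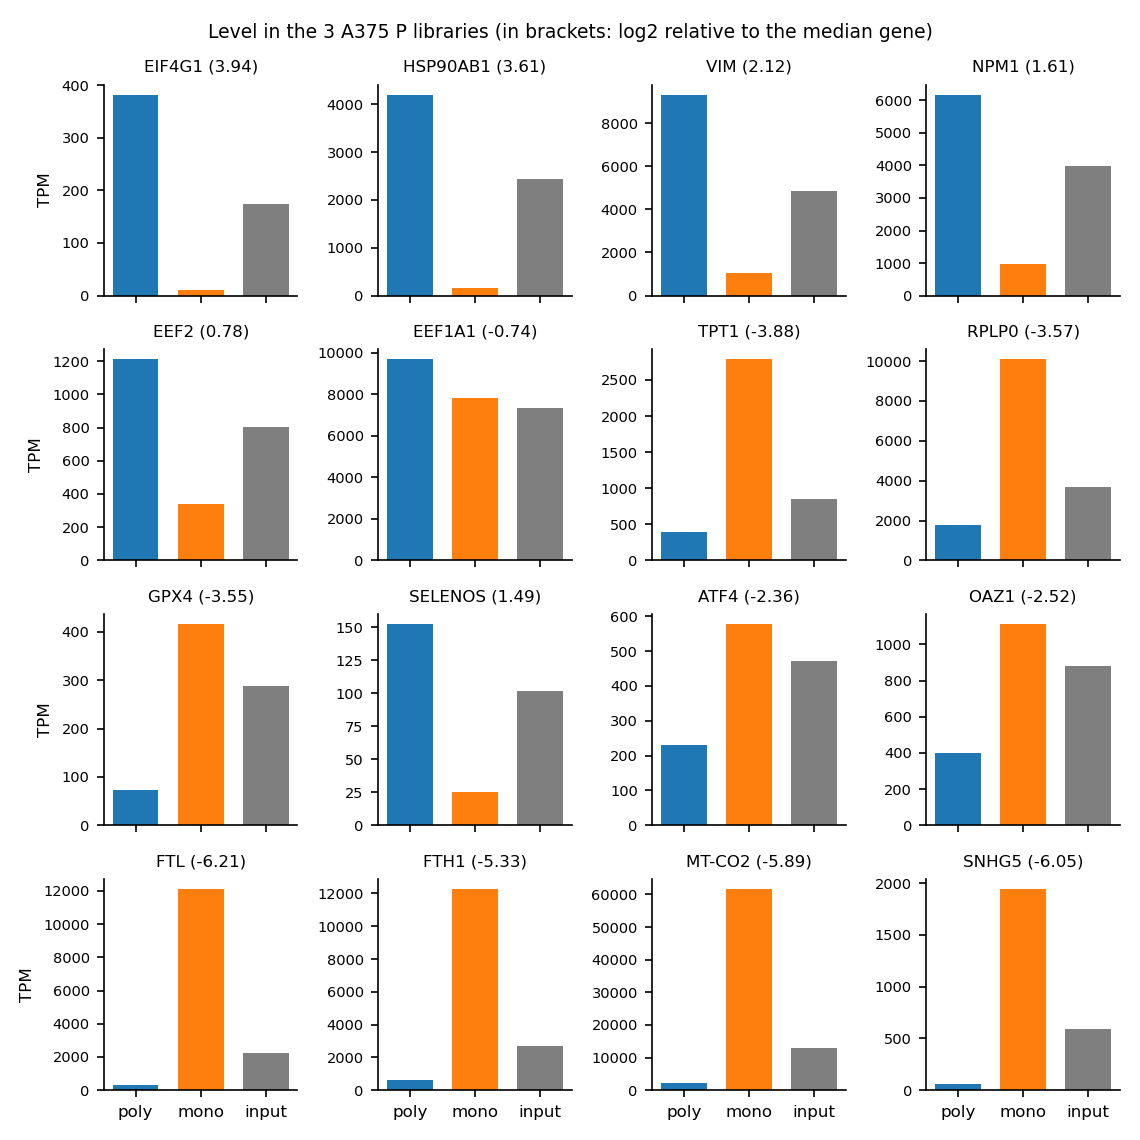
TPM of 16 mRNAs and noncoding RNAs in the A375 P polysome, monosome and input libraries (1 library each, linear axes that start at 0 and differ between panels), with the value relative to the median gene in brackets. EIF4G1, HSP90AB1 and VIM were highest in polysomes, and FTL, FTH1, MT-CO2 and SNHG5 in monosomes.

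Protein length tracked the value across the transcriptome. Over 11158 nuclear genes with a GENCODE coding transcript, Spearman's rho between encoded length and value was 0.34, and over the 2226 with a mean of at least 50 TPM it was 0.56. Genes are not independent, and length also goes with level, since the shortest class had a median level of 55.9 TPM and the longest 7.13 TPM. The 229 genes for proteins under 100 residues had a median of -1.59, with 75.1% lower and 0.437% higher. The 1200 genes of 100 to under 200 residues had a median of -0.69, with 39.5% lower and 7.08% higher. At 200 to under 400 residues the median was -0.05, with 18.6% lower and 17.9% higher. At 400 to under 800 residues it was 0.23, with 8.37% lower and 23.5% higher, and at 800 to under 1600 residues 0.48, with 3.44% lower and 27.8% higher. The 490 genes of 1600 residues or more had a median of 0.59, with 1.63% lower and 32.0% higher. The steps became smaller above 400 residues. Effects of length and of level were not tested apart.

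**Figure D3:**
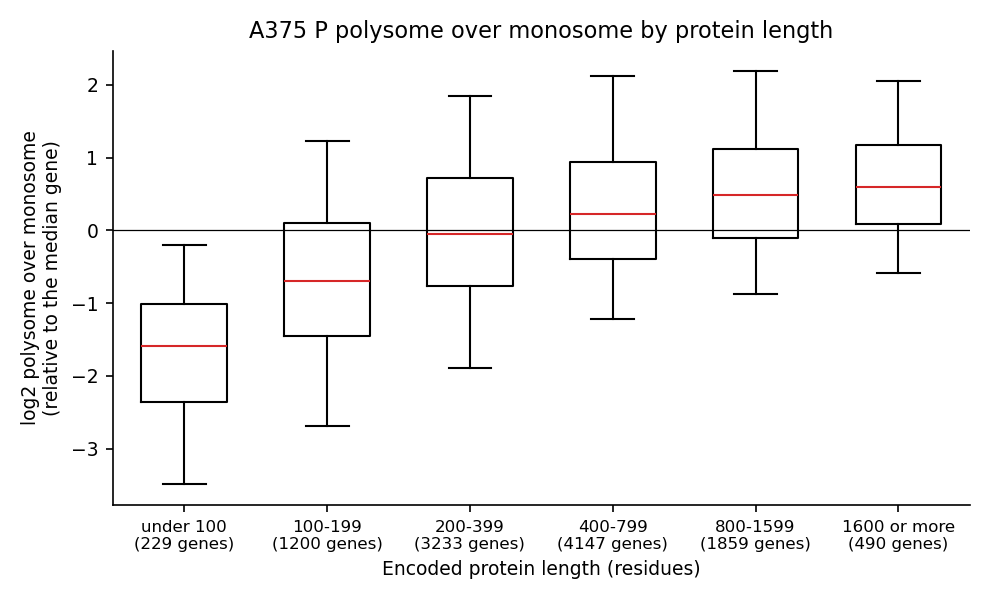
Value of nuclear protein-coding genes (log2 polysome over monosome, relative to the median gene) by length of the encoded protein in residues, with the number of genes in each class; the line is the median, the box the quartiles and the whiskers run from the 5th to the 95th percentile. The medians run from -1.59 under 100 residues to 0.59 at 1600 residues or more.

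The same contrast appeared between short and long members of one complex. RNA polymerase II had 12 subunits compared, 3 higher and 6 lower. POLR2B, its second largest subunit, had 129 TPM in polysomes, against 6.65 TPM in monosomes and 91.7 TPM in input (3.04). POLR2I, a small zinc-binding subunit of 125 residues, had 29.1 TPM in polysomes, against 140.3 TPM in monosomes and 105 TPM in input (-3.28). Among the 8 subunits under 200 residues the median was -1.76 and among the 4 longer ones 1.46. POLR2G, of 172 residues, was an exception (1.76).

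The chaperonin CCT, a ring that folds actin and tubulin, and prefoldin, which hands it substrates, split in the same way. All 8 CCT subunits were higher, from 1.35 (TCP1) to 2.94 (CCT7), with a median of 2.65. CCT7 had 1522 TPM in polysomes, against 94.7 TPM in monosomes and 779.7 TPM in input. The 6 prefoldin subunits, all under 200 residues, had a median of -0.52. PFDN5 had 329.9 TPM in polysomes, against 516 TPM in monosomes and 383 TPM in input (-1.69). PFDN6 was the higher one among them (1.12).

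Splicing and respiratory complexes showed the contrast too. Of the Sm and LSm proteins, which form the core of spliceosomal particles and of decay complexes, the 17 short ones had a median of -1.27 and the 7 long ones 1.38. LSM10, a component of the U7 particle, had 17.5 TPM in polysomes, against 160.3 TPM in monosomes and 82.3 TPM in input (-4.17). SNRNP70, a long protein of the U1 particle, had 537 TPM in polysomes, against 30.7 TPM in monosomes and 267 TPM in input (3.03). Nuclear-encoded subunits of complexes II to V had medians of -0.60 over 31 short and 1.62 over 11 long members. ATP5F1E, the smallest subunit of the ATP synthase head, had 23.3 TPM in polysomes, against 96.3 TPM in monosomes and 86.9 TPM in input (-3.05). SDHA, the flavoprotein of complex II, had 169 TPM in polysomes, against 8.07 TPM in monosomes and 84.99 TPM in input (3.18).

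Elsewhere the same direction was found with smaller or larger gaps. For translation initiation factors the medians were -1.38 over 5 short and 1.61 over 27 long members, and for chaperones and translocon of the ER -0.58 over 12 and 1.60 over 28. For the vacuolar ATPase they were -0.87 over 5 and 1.02 over 12, for complex I 0.13 over 29 and 1.09 over 9, and for mitotic genes -0.57 over 4 and 1.32 over 40. In the actin and tubulin list the 10 short members, cofilin, profilin and myosin light chains among them, had a median of 1.14, close to the 1.33 of the 25 long ones. Of these 10, 7 were higher and 2 lower, the thymosins TMSB10 (-3.96) and TMSB4X (-3.21). In all 20 lists with at least 3 members of each kind the median of the short members was below that of the long ones.

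**Figure D4:**
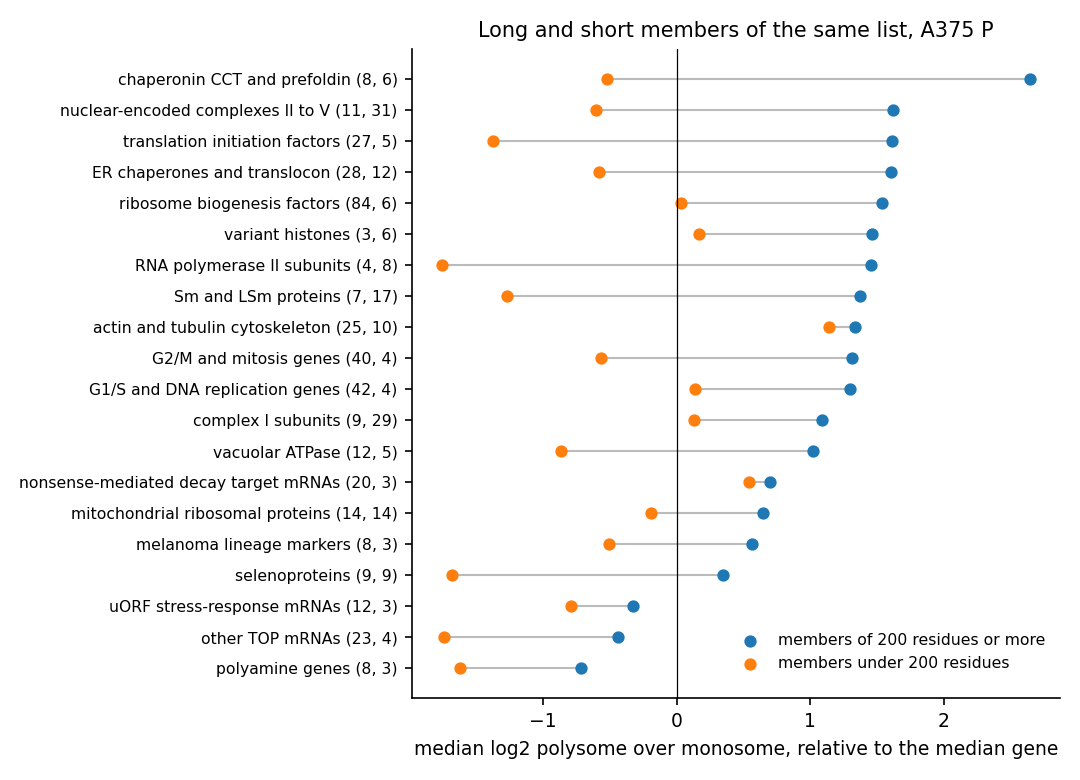
Median value (log2 polysome over monosome, relative to the median gene) of the members of 200 residues or more (blue) and under 200 residues (orange) in 20 gene lists, with the number of long and short members in brackets. In every list the orange point lies left of the blue one, from a gap under 0.2 for the cytoskeleton and nonsense-mediated decay lists to one over 3 for RNA polymerase II and the chaperonin list.

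The small S100, thymosin and metallothionein genes had 10 of 19 lower (52.6%), 2 higher and a median of -1.17, against 20.8% of all genes lower. As deposited that median was -0.12. All 19 encode proteins under 200 residues, with a median of 97, and of the genes for proteins under 100 residues 75.1% were lower. With the median of each member's length class taken off, the median of the list was 0.42, so it was not low for its length. TMSB10, a thymosin that binds actin monomers, had 1021 TPM in polysomes, against 7695 TPM in monosomes and 4447 TPM in input (-3.96). MT2A, a metallothionein, had 261 TPM in polysomes, against 847 TPM in monosomes and 692 TPM in input (-2.75). Replication-dependent histone mRNAs had 8 of 26 lower (30.8%) and 1 higher, against 20.8% of all genes lower. Of these, 25 encode proteins under 200 residues, and of the genes for proteins of 100 to under 200 residues 39.5% were lower. With the median of each member's length class taken off, the median of the histone list was -0.20. Together the 26 took 0.028% of the TPM in polysomes and 0.0093% in monosomes. Low levels weigh on these values. H2BC21, which passed the level filter through A375 S, had 0.55 TPM in polysomes and 0.50 TPM in monosomes of A375 P (-0.995). In A375 S it had 25.5 and 13.4 TPM. Histone mRNAs of this kind lack a poly(A) tail, for which these libraries were selected.

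Heat shock proteins had the highest median of the lists, followed by glycolysis, aminoacyl-tRNA synthetases and the proteasome. Centred on genes averaging 50 TPM or more, which takes off 1.68 in place of 1.05, the medians of 4 of the 14 higher lists stayed past 2-fold, those of heat shock proteins, glycolysis, synthetases and the proteasome. Heat shock proteins had 21 of 24 higher and 0 lower, with a median of 2.06, against 19.1% of all genes higher. HSP90AB1, the constitutive cytosolic HSP90, had 4203 TPM in polysomes, against 165 TPM in monosomes and 2427 TPM in input (3.61). STIP1, which links HSP70 to HSP90, had 642 TPM in polysomes, against 40.02 TPM in monosomes and 298 TPM in input (2.92). Of the ER chaperones and translocon 18 of 40 were higher and 3 lower, with a median of 0.78. HSP90B1, the ER member of the HSP90 family, had 2060.3 TPM in polysomes, against 70.8 TPM in monosomes and 1475 TPM in input (3.79). HSPA5, the ER chaperone BiP, stood at 3.09, and PDIA3, a disulfide isomerase, at 3.39.

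Proteasome subunits had 34 of 40 higher and 2 lower, with a median of 1.86. PSMD2, a large subunit of the regulatory particle, had 419 TPM in polysomes, against 20.4 TPM in monosomes and 231 TPM in input (3.24). PSMC3, an ATPase of the regulatory particle, had 873 TPM in polysomes, against 60.4 TPM in monosomes and 443 TPM in input (2.78). The lower ones, named after their values were seen, were PSMB10, of the immunoproteasome, at -1.69, and SEM1, of 70 residues, at -1.04, which was 0.0052 without taking off the median gene.

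The cytosolic aminoacyl-tRNA synthetases and their scaffold proteins, which charge tRNAs, had 19 of 23 higher and 0 lower, with a median of 1.87. AARS1, alanyl-tRNA synthetase, had 187 TPM in polysomes, against 9.48 TPM in monosomes and 118 TPM in input (3.12). Of 32 translation initiation factors 18 were higher and 3 lower, with a median of 1.20. EIF4G1, the scaffold of the cap-binding complex, had 382 TPM in polysomes, against 11.02 TPM in monosomes and 174 TPM in input (3.94). EIF4E, the cap-binding protein, had 127 TPM in polysomes, against 39.7 TPM in monosomes and 104 TPM in input (0.60). The 3 lower ones, named after their values were seen, were the initiation repressors EIF4EBP1 (-1.57) and EIF4EBP2 (-1.80) and the start codon factor EIF1 (-1.38).

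Ribosome biogenesis factors, which assemble ribosomes in the nucleolus, had 63 of 90 higher and 2 lower, with a median of 1.45. NCL, nucleolin, had 1512 TPM in polysomes, against 39.3 TPM in monosomes and 851 TPM in input (4.18). DDX54, a nucleolar helicase, had 111 TPM in polysomes, against 5.06 TPM in monosomes and 52.5 TPM in input (3.16). The lower ones, named after their values were seen, were NOP56 (-2.27), a core protein of box C/D particles, and NOP10 (-1.50), of 64 residues. These factors stood on the other side of the median gene from the ribosomal proteins and host genes above. Mitochondrial ribosomal proteins, of which 28 of 76 were listed, had a median of 0.42 with 5 higher and 3 lower.

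Splicing regulators of the SR and hnRNP families had 26 of 34 higher and 0 lower, with a median of 1.52. HNRNPM had 829 TPM in polysomes, against 26.7 TPM in monosomes and 415 TPM in input (3.86). Chromatin modifiers had 14 of 40 higher (35.0%) and 0 lower, with a median of 0.70. They were led by SMARCA4, the ATPase of the BAF complex (3.66), and DNMT1, the maintenance DNA methyltransferase (3.17). Of all genes 19.1% were higher, and of those for proteins of 1600 residues or more 32.0%. These modifiers had a median of 1603 residues, so their share was close to that of long proteins. With the median of each member's length class taken off, the median of the list was 0.24. Karyopherins and nuclear pore proteins had 22 of 43 higher and 0 lower, with a median of 1.02.

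Enzymes of central metabolism were high. Glycolysis had 16 of 21 higher and 0 lower, with a median of 1.98. ENO1, enolase, had 8196 TPM in polysomes, against 581 TPM in monosomes and 4238 TPM in input (2.77). GAPDH, the most abundant of them, had 17965 TPM in polysomes, against 7407 TPM in monosomes and 10355 TPM in input, and lay close to the median gene (0.23). The TCA cycle had 16 of 22 higher and 0 lower, with a median of 1.29. MDH1, the cytosolic malate dehydrogenase, had 911 TPM in polysomes, against 55.8 TPM in monosomes and 492 TPM in input (2.95). Lysosomal proteins had 19 of 32 higher and 1 lower, with a median of 1.35, led by CTSL, the protease cathepsin L (3.78), and GRN, progranulin (2.94). Cholesterol and fatty acid synthesis had 11 of 30 higher and 2 lower, with a median of 0.86. FDPS, which makes farnesyl diphosphate, stood at 1.89.

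Cell cycle genes were also mostly above the median gene. Of the G1/S and DNA replication genes 26 of 46 were higher and 1 lower, with a median of 1.14, and of the G2/M and mitosis genes 23 of 44 were higher and 2 lower, with a median of 1.19. MCM7, of the replicative helicase, had 525 TPM in polysomes, against 32.2 TPM in monosomes and 299.7 TPM in input (2.94). CCNB1, cyclin B1, had 521 TPM in polysomes, against 40.2 TPM in monosomes and 305 TPM in input (2.62). The lower mitotic members, named after their values were seen, were CKS1B (-1.19), of 79 residues, and BIRC5 (-1.10), the apoptosis inhibitor survivin.

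The genes closest to melanoma identity and its driver pathway lay near the median gene. Among 23 output genes of the MAPK pathway, which mutant BRAF drives, 1 was higher and 2 lower, with a median of -0.29. MYC had 46.4 TPM in polysomes, against 9.51 TPM in monosomes and 37.5 TPM in input, and was the higher one (1.12). CCND1, cyclin D1, stood at -0.04, and BRAF itself at -0.71. The melanoma lineage list had 3 of 11 higher and 0 lower, with a median of 0.42. MITF, the master regulator of the melanocyte lineage, had 78.4 TPM in polysomes, against 56.6 TPM in monosomes and 66.6 TPM in input (-0.59). SOX10, which acts above it, had 249 TPM in polysomes, against 73.00 TPM in monosomes and 156 TPM in input (0.70). PMEL, the fibril protein of melanosomes, had 13.5 TPM in polysomes, against 0.407 TPM in monosomes and 6.49 TPM in input (2.31). Of 19 neural crest-like and dedifferentiation genes 3 were higher and 1 lower, with a median of 0.27. Extracellular matrix and adhesion genes had 10 of 28 higher (35.7%) and 0 lower, with a median of 0.89. Their median length was 1050 residues, and of genes for proteins of 800 to under 1600 residues 27.8% were higher. LAMB1, a laminin chain, had 159 TPM in polysomes, against 11.1 TPM in monosomes and 152 TPM in input (2.67).

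**Figure D5:**
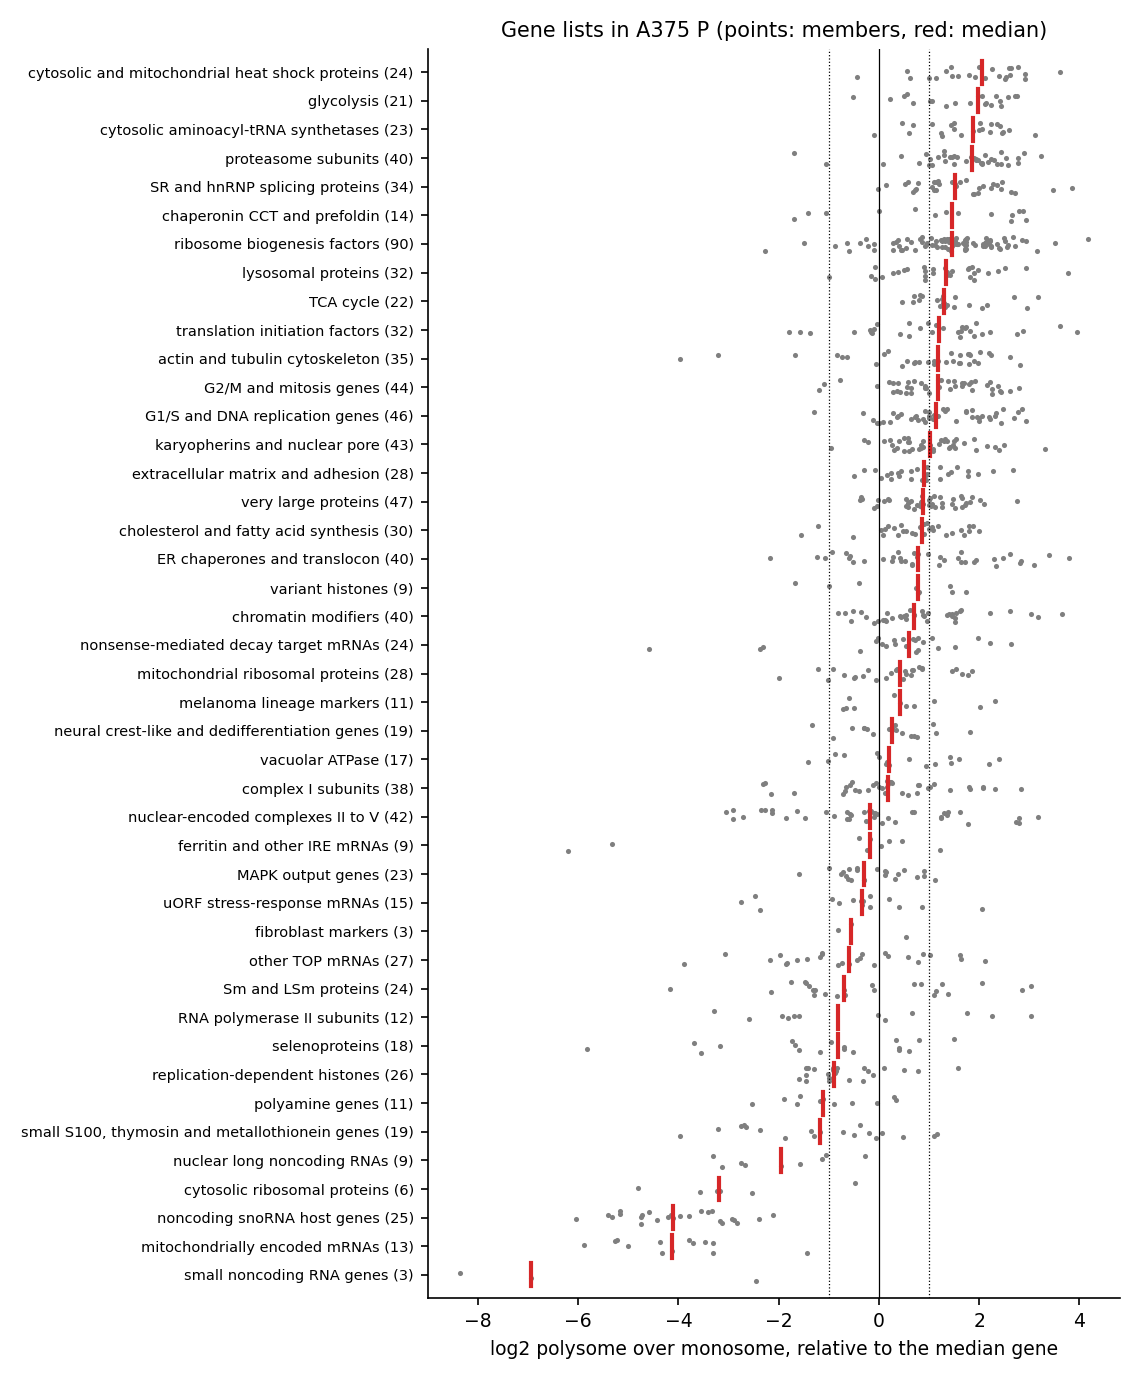
Value of every compared member (points) and the median (red) of the 43 gene lists with at least 3 compared members, as log2 polysome over monosome relative to the median gene, with the number of members in brackets and dotted lines at 2-fold. Heat shock, glycolysis, synthetase and proteasome lists have medians near 2, and mitochondrially encoded mRNAs and host genes medians near -4.

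The highest single values came from genes of several kinds. NME1-NME2, a readthrough locus that shares reads with its separate genes, had 416 TPM in polysomes and 437 TPM in input and was listed at 0 in the monosome library. ILK, a kinase at focal adhesions, had 87.6 TPM in polysomes, against 0.917 TPM in monosomes and 29.7 TPM in input (4.48). SAFB, a scaffold attachment factor, had 218 TPM in polysomes, against 4.38 TPM in monosomes and 119 TPM in input (4.29). SF3B2, a subunit of the U2 particle, had 389.9 TPM in polysomes, against 10.8 TPM in monosomes and 193 TPM in input (4.00). All 3 were highest in polysomes and lowest in monosomes. IFI30, PFKFB3 and CBS had values of 4.06, 3.83 and 3.71, with at most 1.15 TPM in the monosome library. HMGB1P5, TPI1P1 and ITGB1P1 are pseudogenes whose reads cannot be told apart from those of their parent genes by these tables.

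Set beside the A375 cells labelled S, where 20.8% of the genes were higher and 16.7% lower, the A375 P comparison had 1696 genes higher in both, 70.4% of those in A375 P and 64.6% of those in A375 S. It had 1384 lower in both, 52.5% and 65.5%. Set beside Yumm1.7 P, 8779 genes could be matched by symbol, of which 15.4% were higher and 10.6% lower in Yumm1.7 P. Of these genes 856 were higher in both, 41.4% of those in A375 P and 63.3% of those in Yumm1.7 P, and 31.5% and 40.4% of the lower genes were lower in both. The comparisons share no library. Across genes the values of A375 P and A375 S had Pearson's r = 0.745, and those of A375 P and Yumm1.7 P 0.60.

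Several lists kept their side of the median gene in all 3 comparisons, and none of these differences was tested. Host genes had medians of -4.12 in A375 P, -2.84 in A375 S and -2.72 in Yumm1.7 P. Mitochondrially encoded mRNAs had medians of -4.12 in A375 P, -0.53 in A375 S and -3.40 in Yumm1.7 P. Their median in A375 S was thus within 2-fold of the median gene. It was also smaller in size than the 0.67 taken off there, so as deposited it was not below 0. FTL stood at -6.21 in A375 P, -2.94 in A375 S and -4.73 in Yumm1.7 P. The relation with protein length was stronger in A375 P, with rho = 0.34, against 0.13 in A375 S, both over 11158 genes, and 0.11 in Yumm1.7 P over 8690 matched genes. Lengths of proteins and UTRs were those of the human transcripts, also for the matched genes of Yumm1.7 P. Among genes averaging 50 TPM or more over the 6 A375 libraries, a relation with protein length was also seen in the others. There rho was 0.56 in A375 P and 0.41 in A375 S over 2226 genes, and 0.23 in Yumm1.7 P over 2062. The relation with the length of the 3′ UTR was weaker in A375 P, with rho = -0.14, against -0.30 in A375 S and -0.35 in Yumm1.7 P. G2/M and mitosis genes stood on opposite sides, with a median of 1.19 in A375 P, against -0.98 in A375 S. They were at low levels in A375 S, with a median level of 4.97 TPM in polysomes and 5.79 TPM in monosomes, against 93.97 and 19.4 TPM in A375 P, and a gene near 0 TPM in both libraries takes a value near -0.67 there from the centring. CCNB1 stood at 2.62 in A375 P and -0.70 in A375 S, and PRC1, which bundles midzone microtubules, at 2.79 in A375 P and -0.15 in A375 S. Among the genes of the replication list, MCM7 stood at 2.94 in A375 P and -0.27 in A375 S, and PCNA, the polymerase clamp, at 2.70 in A375 P and 1.14 in A375 S.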

How the data were processed

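RNA of 12 gradient and input libraries was measured by sequencing after poly-T bead selection and random priming, per the labels' protocols. The values are TPM as deposited by the authors, 1 table per cell line. Genome builds were GRCh38 (hg38) and GRCm38 (mm10), per the submitters' processing notes. The aligner, the quantifier and the annotation were not given in the sources used here, nor was strandedness. Each group holds 1 library. Depth is unknown, because TPM keeps none, and no interval or test was possible.

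Values were computed as log2(TPM + 1), polysome minus monosome, minus the median over genes averaging 1 TPM or more in the 6 A375 libraries. Differences of 2-fold were counted. On this scale the values of low genes are pulled toward -1.05, so that some of them count as lower from the arithmetic. The steps were checked on simulated data. The 47 gene lists were set by hand, and members and lists were chosen with earlier results of these data known. Genes named were the 15 highest and 15 lowest with a mean of at least 10 TPM, up to 4 members per list with the largest values and at least 5 TPM, any member of a list of 15 or fewer, and a fixed set of 30; others are said to be named after their values were seen. Lengths, UTRs and reading frames came from 1 coding transcript per gene of GENCODE 29, found for 11171 genes. Promoters and gene classes came from RefSeq (GRCh38.p14). Mouse genes were matched by symbol, 8521 in capitals and 8779 with RefSeq synonyms. Alternatives changed the pseudocount (0.1 or 5 TPM), the level filter (none or 10 TPM), the centring, and the mitochondrially encoded genes. Software was Python 3.11.15 with numpy 2.4.6, pandas 2.3.3, scipy 1.17.1 and matplotlib 3.10.9.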

Additional observations from a re-analysis of the deposited data

Results flagged for a closer look

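Several results stood on opposite sides of the median gene in A375 P and in another comparison by 2-fold or more, or nearly so for the list. None of these differences was tested, since each group has 1 library.

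The 44 G2/M and mitosis genes had a median of 1.19 in A375 P, against -0.98 in A375 S, where 22 of the 44 were below 5 TPM in polysomes and 20 in monosomes. NUF2, a kinetochore protein that binds microtubules, stood at 2.42 in A375 P and -1.77 in A375 S, where it had 2.06 TPM in polysomes and 5.57 TPM in monosomes. H2BC5, a replication-dependent histone gene, stood at -1.59 in A375 P, with 1.26 TPM in polysomes and 2.28 TPM in monosomes, and at 1.38 in A375 S, with 73.1 and 16.9 TPM. Such mRNAs lack the poly(A) tail for which these libraries were selected. SRM, spermidine synthase, stood at -1.57 in A375 P and 1.07 in Yumm1.7 P. NOP56, a core protein of box C/D particles, stood at -2.27 in A375 P and 1.19 in A375 S. MT-ATP8, a mitochondrially encoded subunit of the ATP synthase, stood at -3.31 in A375 P and 1.65 in A375 S.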

How the results depend on the processing

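No paired analysis was possible because each group holds 1 library. The value taken off all genes was 1.05 on the log2 scale, 1.26 with a pseudocount of 0.1 TPM, 0.67 with 5 TPM, 0.66 with no level filter, 1.41 for genes averaging 10 TPM or more and 1.68 when centred on genes averaging 50 TPM or more. It was 0.08 when the listed genes other than the mitochondrially encoded ones were rescaled to the same sum in each library, over 13482 genes in place of 12638, since more then passed the level filter. Spearman's rho with protein length, 0.34, lay between 0.25 (pseudocount of 5 TPM) and 0.43 (mean of at least 10 TPM).

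Genes higher and lower, 2408 and 2634, came to 6526 and 930 as deposited, 1030 and 4753 when centred on genes of at least 50 TPM, and 1366 and 1497 among genes of at least 10 TPM, where fewer were compared. With no filter 3724 were higher, and with a pseudocount of 5 TPM 1376 were lower. List medians past 2-fold, 14 higher and 7 lower, came to 26 and 4 as deposited and 4 and 13 when centred on genes of at least 50 TPM, and 11 were lower among genes of at least 10 TPM. As deposited, 4129 genes were higher and 352 lower in A375 P and A375 S, and 3410 and 86 in A375 P and Yumm1.7 P. With a pseudocount of 5 TPM, 461 and 161 were lower in these pairs.

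Centred on genes of at least 50 TPM, medians lost 2-fold for G1/S (0.51), G2/M (0.55), SR and hnRNP proteins (0.89), the TCA cycle (0.66), cytoskeleton (0.55), CCT and prefoldin (0.83), karyopherins (0.39), lysosomal proteins (0.71), ribosome biogenesis (0.82) and initiation factors (0.57). Among genes of at least 10 TPM this held for G1/S (0.93), the TCA cycle (0.94), cytoskeleton (0.83), karyopherins (0.60) and initiation factors (0.85). Karyopherins were also under 2-fold at 0.96 without mitochondrially encoded genes, 0.94 with a pseudocount of 0.1 TPM and 0.95 with 5 TPM, and the cytoskeleton at 0.99 with 0.1 TPM. Polyamine genes stood at -0.066 as deposited, -0.70 with no filter and -0.73 with 5 TPM, small S100, thymosin and metallothionein genes at -0.12, -0.79 and -0.78, and nuclear long noncoding RNAs at -0.90 as deposited. SPRED2 (0.0485), H2AZ2 (0.0491), PFDN1 (0.0007) and SEM1 (0.0052) changed sign as deposited. Each shift in centring follows from the value taken off. For the other settings the cause was not tested.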
